A study of Mus musculus with 8 samples.

Results

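The interferon-inducible GTPases examined here were 10 mouse genes of a pair of families, the guanylate-binding proteins Gbp2, Gbp3, Gbp5, Gbp6, Gbp7 and Gbp9 and the immunity-related GTPases Irgm1, Irgm2, Igtp and Iigp1. A gene was taken through every probe set to which the array's gene annotation gives exactly its symbol, whatever the values. This found 7 of the 10 genes, with 10 probe sets, among 17097 genes with a symbol and 45037 probe sets in all. Gbp5, Gbp6 and Gbp9 had no probe set of exactly that symbol and were not analysed here as expression values. The study measured RNA on Affymetrix arrays from an immortalized myeloid cell made from bone marrow of C57BL/6 mice, with 4 arrays of Meis1 deleted cells and 4 arrays of Hoxa9 and Meis1 cells. Both groups carried a Cre-ERT2 recombinase gene knocked in at Rosa26, a retrovirus for Hoxa9 and a retrovirus for Meis1 that Cre can excise, and both grew in 10% serum with 5 ng/ml interleukin-3. The Meis1 deleted cells had been given 2 µM 4-hydroxytamoxifen, which activates the Cre, and the Hoxa9 and Meis1 cells had not. The effect of losing Meis1 therefore cannot be told apart from that of the drug or of Cre activity, and the labels give neither the length of treatment nor whether the cells were 1 clone.

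Interferons are secreted cytokines that signal through JAK kinases and STAT factors to switch on defence genes, and both GTPase families are among the genes they induce in mouse macrophages. The guanylate-binding proteins are large GTPases related to dynamin that assemble on membranes around bacteria and parasites. The immunity-related GTPases fall into effectors such as Iigp1 (also called Irga6), which coat and disrupt the vacuole of a parasite, and regulators (Irgm1, Irgm2 and Igtp, also called Irgm3), which sit on the cell's own membranes and keep the effectors inactive there. Hoxa9 and Meis1 are homeobox transcription factors that together transform myeloid progenitors. The comparison shows how these GTPase genes stood in cells that the labels give as Meis1 deleted, beside cells labelled as having both Hoxa9 and Meis1.

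The genes share a feature in their promoters that the choice of genes did not use. RefSeq promoter entries of the GRCm38.p6 assembly, each 250 bases before to 50 bases after a gene's start, existed for 7 of the 10 genes (Gbp2, Gbp3, Gbp5, Gbp7, Igtp, Irgm1 and Irgm2). All 7 of these held a match to TTTC, any 2 bases (NN) and TTTC or, for the other strand, GAAA, any 2 bases (NN) and GAAA, the core of the interferon-stimulated response element. The same letters occurred in 3.99% of 27025 genes with a promoter entry and in 3.44% of 32851 promoters. The motif started 59 bases before the start in Gbp2, 45 in Gbp3, 165 in Gbp5, 53 in Gbp7, 34 in Igtp, 30 in Irgm1 and 64 in Irgm2. In Gbp3 and in Irgm1 a pair of matches overlapped, the second starting 39 and 24 bases before the start. Gbp3 has 2 entries, and the match lay in the first of them. The 80 bases around the motif are printed below for the 6 measured genes with an entry, because the position and the letters can be compared by eye, and capitals mark the matched motif on the strand of the gene. They lie at chr3:142620569-142620648 (Gbp2, plus strand), chr3:142559967-142560046 (Gbp3, plus strand), chr3:142530248-142530327 (Gbp7, plus strand), chr11:58199487-58199566 (Igtp, plus strand), chr11:58214878-58214957 (Irgm2, plus strand) and chr11:48871403-48871482 (Irgm1, minus strand), each upstream of or across the start of its gene.
Gbp2: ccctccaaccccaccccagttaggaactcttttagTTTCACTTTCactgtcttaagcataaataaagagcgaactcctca
Gbp3: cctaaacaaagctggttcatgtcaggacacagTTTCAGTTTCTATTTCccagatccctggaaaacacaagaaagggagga
Gbp7: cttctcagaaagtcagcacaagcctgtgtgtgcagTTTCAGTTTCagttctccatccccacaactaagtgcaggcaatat
Igtp: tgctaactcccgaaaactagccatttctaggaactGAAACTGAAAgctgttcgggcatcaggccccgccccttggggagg
Irgm2: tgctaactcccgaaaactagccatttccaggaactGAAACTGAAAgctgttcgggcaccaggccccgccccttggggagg
Irgm1: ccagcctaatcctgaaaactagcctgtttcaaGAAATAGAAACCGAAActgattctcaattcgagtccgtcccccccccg

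The 3 Gbp genes carried the motif as TTTC repeats and the 3 Irg genes as GAAA repeats on their coding strand. Igtp and Irgm2, which are neighbouring genes on chromosome 11, had nearly the same window around the motif. Over the whole promoter their sequences were 72.8% identical (244 of 335 alignment columns), whereas the other 20 pairs of the 7 promoters were 43.6% to 51.1% identical. A second motif, TTCNNNGAA, the core of the gamma-activated sequence and the same on both strands, was found in 4 of the 7 promoters (Gbp5, Gbp7, Igtp and Irgm2), beside 9.55% of all genes with an entry and 8.30% of all promoters. It did not overlap the first motif in these 4. Among 6 other interferon-inducible GTPase genes with an entry, 4 held the first motif (66.7%) and 3 the second (50%), and Ifi47 and Irgq held neither. Among 16 antiviral genes of type I interferon with an entry, 10 held the first motif (62.5%), and among 13 other genes of the dynamin superfamily 0 did. Such a match is a description of letters in a window, not a site or a cause.

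**Figure D1:**
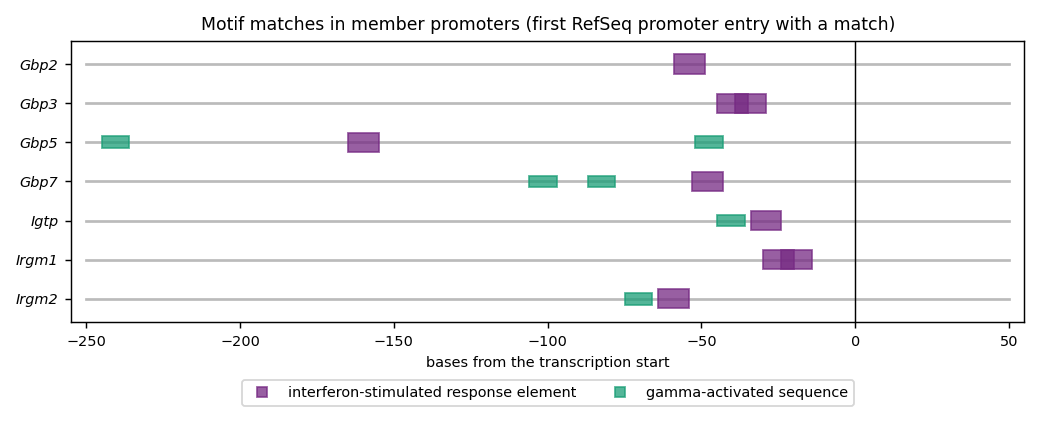
The plot gives, for each interferon-inducible GTPase gene with a RefSeq promoter entry, the distance in bases from the gene's start (x axis) of each match to the interferon-stimulated response element letters and to the gamma-activated sequence letters. All 7 promoters hold the first, and Gbp5, Gbp7, Igtp and Irgm2 also hold the second.

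The arrays themselves were compared first. The deposited values are log2 expression levels from 2.65 to 13.2 with array medians of 4.69 to 4.74, so the arrays were on nearly the same scale. Spiked bioB, a hybridisation control, split the arrays into a set of 5 (Meis1 deleted replicates 1 to 3 and Hoxa9 and Meis1 replicates 1 and 2, 4.04 to 4.28) and a set of 3 (Meis1 deleted replicate 4 and Hoxa9 and Meis1 replicates 3 and 4, 6.43 to 6.61), and each set holds both groups. Meis1 deleted replicate 1 stood apart in RNA integrity, with a 3′ minus 5′ difference of 0.72 for the Gapdh control probe sets against -0.07 to 0.04 on the other 7 arrays. The myeloid label held, since 8 of 8 myeloid markers lay above 6.41, the median level of probe sets that passed the filter. T and NK cell markers, which stand for the usual sources of interferon-gamma, lay under that median in 9 of 9 measured genes, with a summed log2 level of 7.80 to 7.87 on the Meis1 deleted arrays and 7.73 to 7.82 on the Hoxa9 and Meis1 arrays, and 0 of the 5 above the filter passed the test. Plasmacytoid dendritic cell markers lay above that median in 2 of 3 measured genes, Tcf4 at 7.19 and Klk1 at 6.63. They summed to 7.92 to 8.25 on the Meis1 deleted arrays and 7.96 to 8.01 on the Hoxa9 and Meis1 arrays, with 0 higher and 0 lower. Macrophage markers moved with the groups, with 5 of 7 higher (Mrc1, Mertk, Csf1r, Cd68 and Adgre1) and 1 lower (Cd14) and a summed log2 level of 12.75 to 12.82 on the Meis1 deleted arrays and 11.73 to 11.82 on the Hoxa9 and Meis1 arrays. Erythroid and megakaryocytic markers summed to 10.42 to 10.55 on the Meis1 deleted arrays and 8.05 to 8.10 on the Hoxa9 and Meis1 arrays, with 2 of 6 measured genes higher and 0 lower. The largest difference in that list was that of Pf4, which averaged 10.27 in Meis1 deleted cells and 6.43 in Hoxa9 and Meis1 cells. The other gene called higher was Epor, at 5.32 in Meis1 deleted cells and 5.09 in Hoxa9 and Meis1 cells (limma adjusted p = 0.0493). Hba-a1, Klf1, Itga2b and Gp1bb did not pass the test. They averaged 5.81, 5.16, 5.49 and 3.53 in Meis1 deleted cells. In Hoxa9 and Meis1 cells they averaged 5.72, 5.13, 5.7 and 3.45. Mast cell and basophil markers summed to 7.59 to 7.97 on the Meis1 deleted arrays and 8.13 to 8.26 on the Hoxa9 and Meis1 arrays, with 0 of 5 measured genes higher and 2 lower. The calls of all these markers came from a fit with no filter, adjusted over all probe sets, in which 8.69% of probe sets were called higher. That share includes probe sets at low levels. In the fit of probe sets that passed the filter, 14.2% were called higher. Of the genes above the filter, 17.5% were called lower. The part of these markers in the results below was not tested. In such bulk RNA, fewer cells of a type and less RNA per cell cannot be told apart. The Meis1 probe set read 5.02 ± 0.07 in Meis1 deleted cells and 5.00 ± 0.05 in Hoxa9 and Meis1 cells (SD, n = 4 each), and no source used here tells whether it lies in the retroviral cDNA, so it does not check the deletion. The labels do not say whether the arrays within each group are separate cultures. The p-values therefore reflect the spread of these samples alone, and that spread may be technical.

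All 7 measured GTPase genes were higher in Meis1 deleted cells than in Hoxa9 and Meis1 cells, and the groups of arrays overlapped in none of them. Of all 11836 genes tested, 18.1% were called higher and 17.5% lower by the same test, and 35.5% were called in either direction. Groups of arrays that did not overlap, with the Meis1 deleted arrays higher, were found in 19.7% of all genes. In 5 of the 7 the rise was at least 2-fold (Irgm1, Iigp1, Irgm2, Gbp2 and Igtp), a size that 2.51% of all genes reached with a call. The median log2 fold change of the 7 was 1.93, against -0.004 over all genes tested and 0.37 over all genes called higher. Genes were tested with limma at an adjusted p of 0.05 over all genes, after the lowest 40% of probe sets (under a mean of log2 4.29) had been left out. All 10 probe sets of the GTPases passed that filter and all 10 were called higher, beside 14.2% of all kept probe sets. Iigp1 averaged less than the filter threshold in Hoxa9 and Meis1 cells and was kept through its level in Meis1 deleted cells. With no filter all 10 probe sets were also called higher, beside 8.69% of all probe sets. With 64 added on the linear scale before the logarithm, which shrinks differences between low values, the median was 1.05 and all 7 genes were still called.

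**Figure D2:**
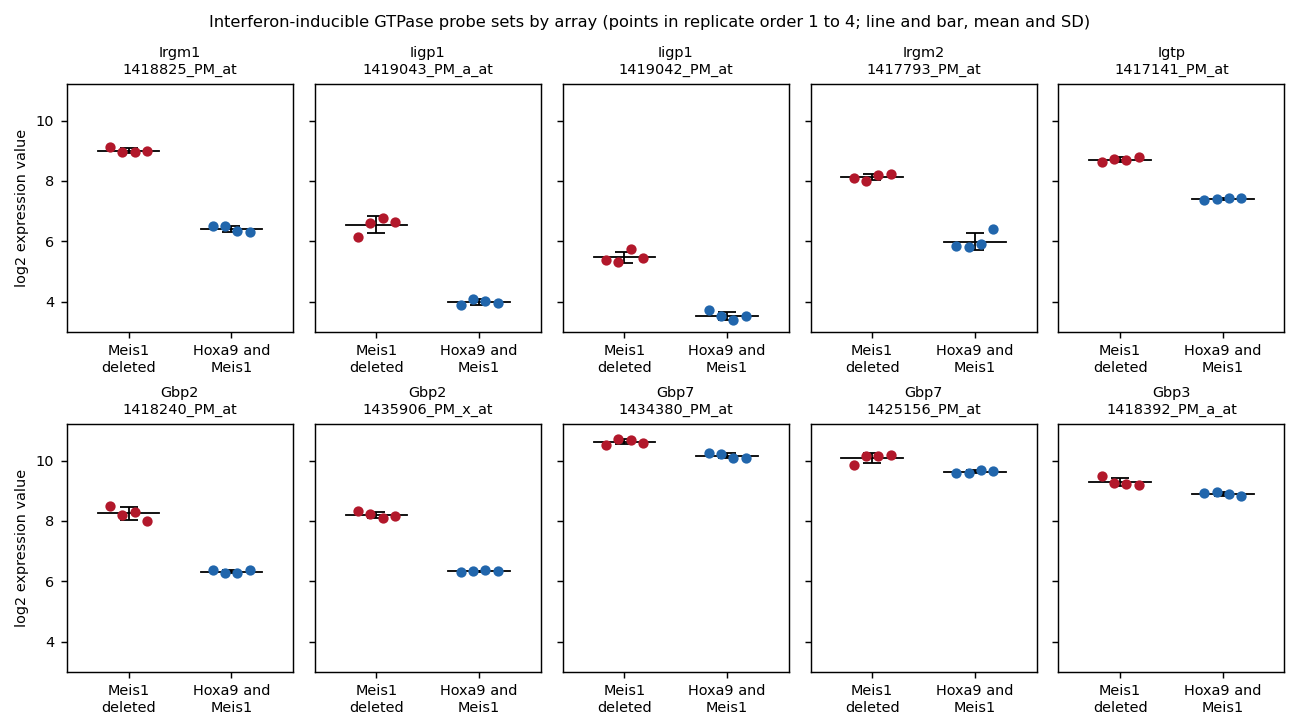
Each panel plots the log2 expression level (y axis) of 1 probe set of an interferon-inducible GTPase gene on the 4 Meis1 deleted arrays (left) and the 4 Hoxa9 and Meis1 arrays (right), a point for each array and a line for the group mean. The groups overlap in none of the 10 probe sets, and the gap is widest for Irgm1 and the Iigp1 probe set with the higher mean and narrowest for Gbp3 and the pair of Gbp7 probe sets.

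Irgm1 is a regulator of the family that in mice is needed for resistance to mycobacteria and for the survival of activated cells. Its log2 levels were 9.13, 8.95, 8.95 and 8.98 on Meis1 deleted arrays 1 to 4, against 6.50, 6.49, 6.35 and 6.30 on Hoxa9 and Meis1 arrays 1 to 4. All Meis1 deleted arrays lay far above all Hoxa9 and Meis1 arrays, and within each group the arrays lay close together. Irgm1 averaged 9.0 ± 0.09 in Meis1 deleted cells and 6.41 ± 0.10 in Hoxa9 and Meis1 cells (SD, n = 4 each), a log2 fold change of 2.59 ± 0.07 (SE, 6.04-fold, limma adjusted p = 4.31e-09). That was the largest rise among the 7, and it ranked 51 among the rises of all genes tested.

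Irgm2 is a second regulator. It read 8.09, 8.01, 8.20 and 8.23 on the Meis1 deleted arrays, against 5.83, 5.80, 5.92 and 6.41 on the Hoxa9 and Meis1 arrays. The groups did not overlap, and Hoxa9 and Meis1 replicate 4 lay above the other 3 arrays of its group. The log2 fold change was 2.14 ± 0.13 (SE, 4.42-fold, limma adjusted p = 1.53e-06), between means of 8.13 ± 0.10 in Meis1 deleted cells and 5.99 ± 0.28 in Hoxa9 and Meis1 cells.

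Igtp, the third regulator, read 8.62, 8.74, 8.70 and 8.78 on the Meis1 deleted arrays and 7.36, 7.40, 7.45 and 7.43 on the Hoxa9 and Meis1 arrays. Its groups were the tightest of the Irg genes and did not overlap. It averaged 8.71 ± 0.07 in Meis1 deleted cells and 7.41 ± 0.04 in Hoxa9 and Meis1 cells, a log2 fold change of 1.30 ± 0.05 (SE, 2.46-fold, limma adjusted p = 6.24e-08). The rise of Igtp was smaller than that of its neighbour Irgm2 by 0.84 on the log2 scale (95% interval 0.49 to 1.19). The promoters of this pair are the similar ones printed above. The rise of Igtp was also smaller than that of Irgm1 by 1.29 (95% interval 1.05 to 1.54). These pairs of regulators were chosen after their values were seen, and the intervals are not adjusted.

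Iigp1, the effector of the set, loads onto the vacuole of Toxoplasma in mouse cells and destroys it. Its probe set with the higher mean read 6.14, 6.62, 6.77 and 6.65 on the Meis1 deleted arrays, against 3.88, 4.09, 4.03 and 3.96 on the Hoxa9 and Meis1 arrays. The other probe set read 5.37, 5.32, 5.74 and 5.44 on the Meis1 deleted arrays, against 3.71, 3.51, 3.40 and 3.51 on the Hoxa9 and Meis1 arrays. In both, all Meis1 deleted arrays were higher, with replicate 1 the lowest of its group in the first and replicate 3 the highest of its group in the second. The log2 fold change of the first was 2.56 ± 0.12 (SE, 5.88-fold, limma adjusted p = 3.82e-07), and that of the second was 1.93 ± 0.10 (adjusted p over kept probe sets 8.68e-07). The means in Hoxa9 and Meis1 cells, 3.99 and 3.53, lay under the filter threshold of 4.29 and close to the median of 3.23 of the array's 23 nonspecific control probe sets, so the size of the Iigp1 rise is uncertain. The highest nonspecific probe set averaged 7.18, so levels of other genes up to that value are not shown to be free of background either. With 64 added on the linear scale the log2 fold change of Iigp1 was 0.98 (adjusted p = 1.07e-05).

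Gbp2 belongs to the guanylate-binding proteins that carry a lipid anchor and gather on pathogen vacuoles. It read 8.48, 8.21, 8.31 and 7.98 on the Meis1 deleted arrays, against 6.36, 6.27, 6.27 and 6.37 on the Hoxa9 and Meis1 arrays. A second probe set, whose name marks probes that may match other sequences, read 8.33, 8.23, 8.09 and 8.15 on the Meis1 deleted arrays and 6.30, 6.33, 6.36 and 6.33 on the Hoxa9 and Meis1 arrays. The probe sets put both groups at nearly the same levels, and in neither did the groups overlap. The gene averaged 8.24 ± 0.21 in Meis1 deleted cells and 6.32 ± 0.06 in Hoxa9 and Meis1 cells, a log2 fold change of 1.93 ± 0.10 (SE, 3.81-fold, limma adjusted p = 4.32e-07). The second probe set gave 1.87 ± 0.06 (adjusted p over kept probe sets 2.35e-08).

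Gbp7, which in mouse macrophages has been linked to assembly of the phagocyte NADPH oxidase, changed much less. Its probe set with the higher mean read 10.52, 10.73, 10.67 and 10.59 on the Meis1 deleted arrays, against 10.26, 10.23, 10.09 and 10.08 on the Hoxa9 and Meis1 arrays. The other read 9.85, 10.16, 10.15 and 10.20 on the Meis1 deleted arrays, against 9.60, 9.58, 9.70 and 9.66 on the Hoxa9 and Meis1 arrays. Neither probe set had overlapping groups, and in both Meis1 deleted replicate 1 was the lowest of its group. The log2 fold changes were 0.46 ± 0.06 (SE, 1.38-fold, limma adjusted p = 0.000435) and 0.45 ± 0.08 (adjusted p over kept probe sets 0.00224).

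Gbp3, a further guanylate-binding protein, read 9.48, 9.25, 9.21 and 9.18 on the Meis1 deleted arrays, against 8.94, 8.96, 8.89 and 8.82 on the Hoxa9 and Meis1 arrays. The groups did not overlap, with Meis1 deleted replicate 1 the highest. The log2 fold change was 0.38 ± 0.07 (SE, 1.30-fold, limma adjusted p = 0.00289), the smallest of the 7. Gbp3 was the gene whose call depended on the arrays used. Within the set of 5 arrays its log2 fold change was 0.36 (adjusted p = 0.0601) and within the set of 3 it was 0.32 (adjusted p = 0.0531), while with the array set as a block it was 0.35 (adjusted p = 0.00466). The other 6 genes were called within the set of 5 arrays and with the block. They were also called within the set of 3, where a single Meis1 deleted array had to be assumed to vary like the others. Guanylate-binding proteins are close paralogs, and how far a probe set of one reads another was not tested.

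**Figure D3:**
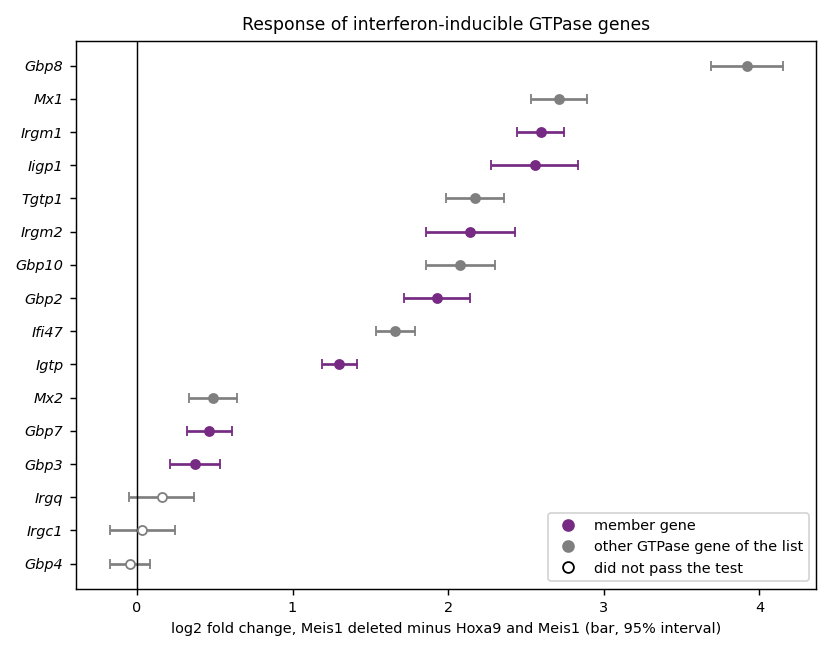
The plot gives the log2 fold change, Meis1 deleted minus Hoxa9 and Meis1 (x axis), with its 95% interval, for each interferon-inducible GTPase gene examined and for the other GTPase genes of the same kind. Irgm1, at 2.59, and Iigp1, at 2.56 but 0.98 with 64 added on the linear scale, have the largest values of the 7 genes, Gbp7 and Gbp3 lie under 0.5, and Gbp8, at 3.92, lies beyond all of them.

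The 7 genes thus rose by unequal amounts. In the order of fold changes as deposited, the intervals between Irgm1, Iigp1, Irgm2 and Gbp2, each against the next, included 0. The within-array differences were 0.04 (95% interval -0.44 to 0.51) between Irgm1 and Iigp1, 0.41 (-0.08 to 0.91) between Iigp1 and Irgm2, and 0.22 (-0.24 to 0.67) between Irgm2 and Gbp2. Between Irgm1 and Irgm2 the difference was 0.45 (-0.04 to 0.94). Gbp2 was nonetheless set apart from the top of the order. It rose less than Irgm1 by 0.665 (0.41 to 0.92) and less than Iigp1 by 0.627 (0.061 to 1.192), and both intervals excluded 0. Of all 21 pairs of the 7 genes, 16 had an interval that excluded 0, with no adjustment for the number of pairs. The place of Iigp1 in this order rests on its level near the floor in Hoxa9 and Meis1 cells. With 64 added on the linear scale the log2 fold changes were 1.95 for Irgm1, 1.43 for Irgm2, 1.36 for Gbp2, 1.05 for Igtp, 0.98 for Iigp1, 0.44 for Gbp7 and 0.34 for Gbp3. Iigp1 then stood below Irgm2, Gbp2 and Igtp, and the other 6 kept their order. Gbp2 rose more than Igtp by 0.63 (0.28 to 0.98), and Igtp rose more than Gbp7 by 0.84 (0.65 to 1.02). Gbp7 and Gbp3 at the low end differed by 0.09 (-0.17 to 0.35). The difference in rise was therefore large within the guanylate-binding proteins, where Gbp2 exceeded Gbp3 by 1.55 (1.36 to 1.75), a pair chosen after its values were seen. The genes with the smallest rises, Gbp7 and Gbp3, lie side by side on chromosome 3 in the RefSeq gene order Gbp5, Gbp7, Gbp3, Gbp2b and Gbp2. The mean level of the 7 genes was 8.64, 8.64, 8.69 and 8.63 on Meis1 deleted arrays 1 to 4, against 7.02, 7.03, 7.0 and 7.05 on Hoxa9 and Meis1 arrays 1 to 4. The arrays of a group thus differed little from each other in this mean, also Meis1 deleted replicate 1. The mean hides opposite shifts of single genes on that array. At the probe sets that stand for the genes, it was the highest of its group for Gbp2, Gbp3 and Irgm1. It was the lowest of its group for Iigp1, Igtp and Gbp7. Without that replicate the log2 fold changes were 2.55 for Irgm1, 2.69 for Iigp1, 2.16 for Irgm2, 1.85 for Gbp2, 1.33 for Igtp, 0.50 for Gbp7 and 0.31 for Gbp3, and all 7 were called.

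Other GTPase genes that interferons induce formed a list of 14, of which 10 had a probe set and 9 passed the filter. Of these 9, 6 rose, 0 fell and 3 did not pass the test, and the median log2 fold change was 1.66. The share higher was 66.7%, beside 18.1% of all genes. Gbp8, a neighbour of Gbp9 on chromosome 5, read 9.51, 9.32, 9.21 and 9.19 on the Meis1 deleted arrays, against 5.22, 5.24, 5.53 and 5.56 on the Hoxa9 and Meis1 arrays. No array of 1 group came near the other, and the log2 fold change of Gbp8 was 3.92 ± 0.10 (SE, 15.1-fold, limma adjusted p = 4.82e-09). Tgtp1 and Ifi47 encode further immunity-related GTPases, and they rose by 2.17 ± 0.08 (adjusted p = 6.81e-08) and by 1.66 ± 0.06 (adjusted p = 3.09e-08). Gbp10 rose by 2.08 ± 0.10 (adjusted p = 3.23e-07), between levels of 6.23 ± 0.14 in Meis1 deleted cells and 4.15 ± 0.17 in Hoxa9 and Meis1 cells, and its other probe set gave 2.73 ± 0.16. Mx1, a dynamin-like GTPase, rose by 2.71 ± 0.08 (adjusted p = 1.04e-08), between 6.68 ± 0.14 in Meis1 deleted cells and 3.97 ± 0.09 in Hoxa9 and Meis1 cells. Gbp10 and Mx1 averaged less than the filter threshold in Hoxa9 and Meis1 cells and were kept through their levels in Meis1 deleted cells, so the sizes of these rises are uncertain. Mx2 rose by 0.49 ± 0.07 (adjusted p = 0.000455).

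Gbp4, which lies between Gbp9 and Gbp10 in the gene order of chromosome 5, read 4.71, 4.78, 4.65 and 4.72 on the Meis1 deleted arrays, against 4.69, 4.72, 4.90 and 4.73 on the Hoxa9 and Meis1 arrays. The groups overlapped, and its difference was -0.04 (95% interval -0.17 to 0.09, adjusted p = 0.598) at low levels. Irgc1 differed by 0.04 (-0.17 to 0.24, adjusted p = 0.802) and Irgq by 0.16 (-0.05 to 0.37, adjusted p = 0.221). A second Irgq probe set differed by -0.18 (adjusted p over kept probe sets 0.103), with the opposite sign. Irgc1 and Irgq are relatives of the immunity-related GTPases that are not known as interferon-induced genes. Gbp2b lay under the filter, at 3.62 ± 0.14 in Meis1 deleted cells and 3.45 ± 0.16 in Hoxa9 and Meis1 cells, and overlapped between the groups. Among 12 tested genes of the dynamin superfamily that are not interferon genes, 3 rose and 0 fell, with a median log2 fold change of 0.06. These were Ehd1, an endosomal ATPase (0.45 ± 0.07, adjusted p = 0.000984), Mfn2, a mitochondrial fusion GTPase (0.26 ± 0.06, adjusted p = 0.0126), and Atl3, which shapes the endoplasmic reticulum (0.13 ± 0.04, adjusted p = 0.0369), a share of 25% beside the 18.1% of all genes.

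Among the interferons themselves and the cytokines known to induce them, Il18 was higher in Meis1 deleted cells, and the measured interferon genes were low in both groups. Interferon-gamma itself (Ifng) read 3.43 ± 0.06 in Meis1 deleted cells and 3.51 ± 0.09 in Hoxa9 and Meis1 cells, and interferon-beta (Ifnb1) read 4.18 ± 0.07 in Meis1 deleted cells and 4.21 ± 0.12 in Hoxa9 and Meis1 cells. Both lay under the filter, and in the fit with no filter their adjusted p was 0.398 and 0.822. Ifna1 and Ifna4, genes of interferon-alpha, averaged 4.13 and 4.14 in Meis1 deleted cells, against 4.09 and 4.18 in Hoxa9 and Meis1 cells. RNA levels at the floor do not show that no cytokine was made. Of the 3 ligand and inducing genes above the filter, 1 rose and 1 fell (33.3% higher, beside 18.1% of all genes). Il18, a cytokine known for inducing interferon-gamma in lymphocytes, averaged 8.60 ± 0.12 in Meis1 deleted cells and 6.24 ± 0.30 in Hoxa9 and Meis1 cells, a log2 fold change of 2.37 ± 0.14 (adjusted p = 1.29e-06). Il12a, a subunit of interleukin-12, fell by 0.57 ± 0.07 (adjusted p = 0.000135). Ifna2 differed by 0.16 ± 0.06 (adjusted p = 0.0596), and it passed the threshold without Meis1 deleted replicate 1, when 2 genes of the list were called higher.

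Of 13 tested receptors, kinases and transcription factors of interferon signalling, 7 rose and 1 fell (53.8% higher, beside 18.1% of all genes). The largest rises were those of Irf9 (1.58 ± 0.12, adjusted p = 6.73e-06) and Stat2 (1.40 ± 0.10, adjusted p = 7.52e-06), which are parts of a factor that binds the interferon-stimulated response element. Irf7, an amplifier of type I interferon production, rose by 0.96 ± 0.08 (adjusted p = 1.19e-05). Irf1, a factor that binds the same element and acts downstream of interferon-gamma, rose by 0.58 ± 0.05 (adjusted p = 1.83e-05). Jak2, a kinase of the interferon-gamma receptor, fell by 0.32 ± 0.04 (adjusted p = 0.000245). Jak1, named after its values were seen, differed by 0.31 (95% interval 0.07 to 0.56, adjusted p = 0.0512). Ifnar1, a chain of the type I receptor, and Tyk2, a kinase of that receptor, rose by 0.23 ± 0.05 (adjusted p = 0.00589) and by 0.25 ± 0.06 (adjusted p = 0.0116). Irf2, another factor of the list, rose by 0.72 ± 0.17 (95% interval 0.34 to 1.11, adjusted p = 0.0091), an interval that holds the value of Irf1. Ifnar1, Tyk2 and Irf2 were named after their values were seen. Ifnar2, the other chain of that receptor, differed by -0.07 (95% interval -0.17 to 0.03, adjusted p = 0.269), and the myeloid factor Irf8 by -0.06 (-0.18 to 0.06, adjusted p = 0.424). The interferon-gamma receptor chains, named after their values were seen, differed by 0.07 (-0.03 to 0.18) for Ifngr1 and 0.18 (-0.16 to 0.53) for Ifngr2. Of 8 feedback genes, 2 rose and 3 fell (25% higher, beside 18.1% of all genes). Usp18, which restrains the type I receptor, rose by 4.61 ± 0.16 (adjusted p = 2.97e-08), between 8.32 ± 0.12 in Meis1 deleted cells and 3.71 ± 0.35 in Hoxa9 and Meis1 cells, a level near the floor. Ptpn6, a phosphatase, rose by 0.41 ± 0.09 (adjusted p = 0.00736), while the cytokine signalling inhibitors Cish, Socs3 and Socs1 fell by 0.72, by 0.31 and by 0.28 (adjusted p = 2.46e-06, 0.0302 and 0.0401).

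Of 15 tested antiviral genes of type I interferon, 14 rose and 1 fell (93.3% higher, beside 18.1% of all genes), with a median log2 fold change of 2.43. Rtp4, an interferon-induced gene of the receptor transporter protein family, averaged 10.33 ± 0.08 in Meis1 deleted cells and 4.76 ± 0.19 in Hoxa9 and Meis1 cells (5.57 ± 0.09, adjusted p = 2.57e-10). Ifit2, which acts on viral RNA translation, rose by 4.05 ± 0.12 (adjusted p = 9.99e-09) and Oasl2, of the oligoadenylate synthase family, by 3.50 ± 0.07 (adjusted p = 1.06e-09), between 7.58 ± 0.07 in Meis1 deleted cells and 4.07 ± 0.14 in Hoxa9 and Meis1 cells, a level under the filter threshold. Isg20, an exonuclease, fell by 0.20 ± 0.06 (adjusted p = 0.0232). Of 10 tested genes associated with interferon-gamma, 3 rose and 2 fell (30% higher), with a median of -0.01. The lists were not tested against each other. Fcgr1, an immunoglobulin G receptor and also a macrophage gene, rose by 3.96 ± 0.07 (adjusted p = 2.53e-10). Cxcl10, a chemokine that both interferon types induce, rose by 1.56 ± 0.08 (adjusted p = 5.07e-07), and Cd74, the invariant chain of class II molecules, by 0.57 ± 0.06 (adjusted p = 0.000111). H2-DMa, a class II chaperone, fell by 0.38 ± 0.06 (adjusted p = 0.00116), and Nos2, the inducible nitric oxide synthase, fell by 0.26 ± 0.05 (adjusted p = 0.00435). Cxcl9, a chemokine induced by interferon-gamma, differed by 0.15 (95% interval 0.00 to 0.30, adjusted p = 0.109). The immunoproteasome subunit Psmb8 differed by -0.11 (-0.27 to 0.04, adjusted p = 0.245) and the class II gene H2-Ab1 by -0.08 (-0.21 to 0.04, adjusted p = 0.289). The class II regulator Ciita, H2-Aa and Ido1 lay under the filter. Nos2, Cxcl9 and H2-Ab1 lay just above its threshold of 4.29. They averaged 4.43, 4.55 and 4.46 in Meis1 deleted cells and 4.69, 4.39 and 4.55 in Hoxa9 and Meis1 cells. Their differences are uncertain at such levels, and the median of this list rests partly on them.

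**Figure D4:**
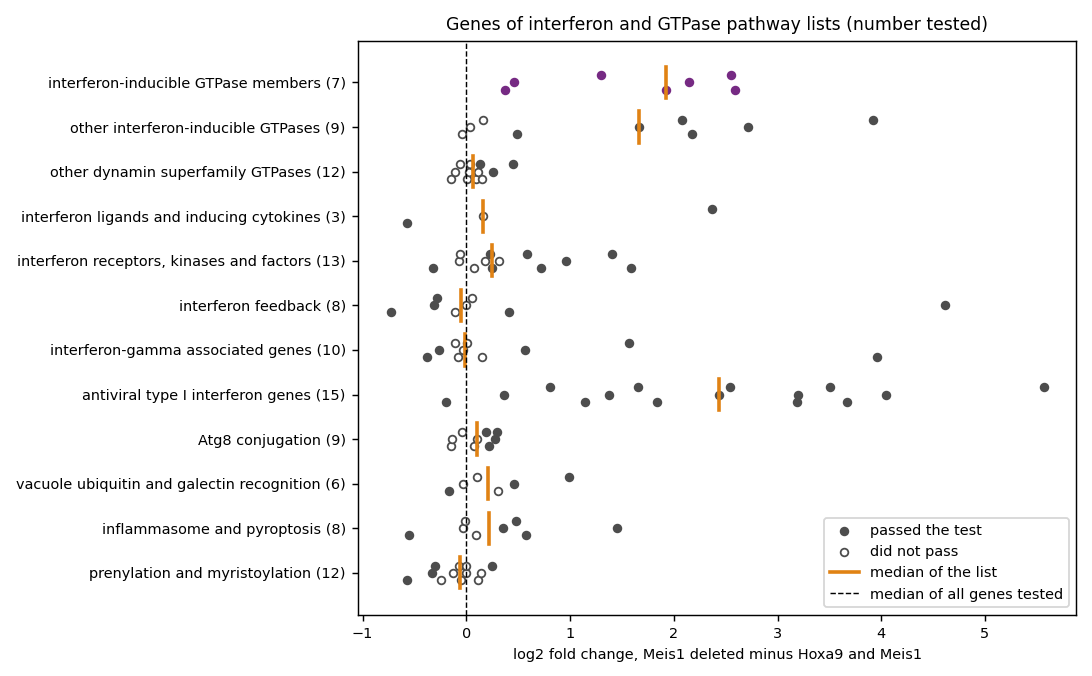
Each point is the log2 fold change, Meis1 deleted minus Hoxa9 and Meis1 (x axis), of 1 tested gene, grouped by list (y axis), with genes that passed the test marked apart from those that did not. The antiviral genes (median 2.43), the 7 GTPase genes examined (median 1.93) and the other interferon-inducible GTPases (median 1.66) lie to the right, and the other lists have medians between -0.06 and 0.25.

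Genes that act with the GTPases at the vacuole were followed as well. Of 9 tested genes of the Atg8 conjugation machinery, the part of the autophagy pathway needed in mice to load these GTPases on vacuoles, 4 rose and 0 fell, with a median of 0.11. The share higher was 44.4%, beside 18.1% of all genes. Atg5 rose by 0.30 ± 0.06 (adjusted p = 0.00238), Gabarap by 0.28 ± 0.06 (adjusted p = 0.00816), Gabarapl1 by 0.22 ± 0.05 (adjusted p = 0.00628) and Atg12 by 0.19 ± 0.06 (adjusted p = 0.0287). Within the set of 5 arrays, where fewer arrays were tested, 1 of these 9 genes was called higher. Of 12 tested genes of prenylation and myristoylation, which attach the lipid anchors, 1 rose and 3 fell. Of all genes, 18.1% were called higher and 17.5% lower. Rabggta, a subunit of Rab geranylgeranyl transferase, fell by 0.57 ± 0.06 (adjusted p = 5.49e-05), Nmt2, an N-myristoyltransferase, by 0.33 ± 0.08 (adjusted p = 0.00955) and Fdps, which makes farnesyl pyrophosphate, by 0.30 ± 0.10 (adjusted p = 0.0492). Zmpste24, a protease for prenylated proteins, rose by 0.25 ± 0.05 (adjusted p = 0.00526).

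Genes that act after a vacuole has been breached were mixed. Of 6 tested genes that recognise such vacuoles through ubiquitin or galectins, 2 rose and 1 fell (33.3% higher, beside 18.1% of all genes). Trim21, a cytosolic antibody receptor and ubiquitin ligase, rose by 0.99 ± 0.05 (adjusted p = 7.67e-07), Lgals3, a galectin, rose by 0.46 ± 0.04 (adjusted p = 4.46e-05), and Tax1bp1, an autophagy receptor, fell by 0.17 ± 0.05 (adjusted p = 0.0173). Of 8 tested inflammasome and pyroptosis genes, 4 rose and 1 fell (50% higher, beside 18.1% of all genes). Zbp1, a sensor of Z-form nucleic acid, rose by 1.45 ± 0.08 (adjusted p = 9.55e-07), and Il1b, an inflammasome substrate, by 0.58 ± 0.06 (adjusted p = 7.61e-05). Casp1 rose by 0.48 ± 0.04 (adjusted p = 2.35e-05) and Casp4, the mouse gene of caspase-11 that senses bacterial lipopolysaccharide, by 0.35 ± 0.05 (adjusted p = 0.000375). Nlrp3, an inflammasome sensor, fell by 0.56 ± 0.07 (adjusted p = 0.000162).

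The genes whose values over the 8 arrays were most like the mean scaled profile of the 7 GTPases were not themselves GTPases. They were Alas1, a haem synthesis enzyme (Pearson r = 0.9996), Clec10a, a macrophage lectin (0.9996), Pf4, a platelet and macrophage chemokine (0.9995), Apobec1, an RNA-editing enzyme (0.9994), Ms4a6d, a myeloid membrane protein (0.9993), Myo5a, a motor protein (0.9992), Saa3, an acute phase protein (0.9992), and Lyz2, lysozyme (0.9991). Their log2 fold changes ran from 0.58 for Alas1 to 3.97 for Ms4a6d. With 4 arrays in each of 2 groups, this likeness is mostly the difference between the groups, and 232 genes outside the set reached 0.99. The 7 genes themselves had values from 0.915 to 0.999 with that profile.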

How the data were processed

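Expression was measured on 8 Affymetrix perfect-match arrays, 4 per group, grouped by the labels, from 100 ng of total RNA each. The deposited values are log2 expression values, judged so from their range, and the arrays' medians differ little, which leaves any normalization by the authors unnamed. The submitters' processing notes name MAS5 without a version or role. No source used here gives the genome build or the summarisation. The design allowed for an offset if values were linear, and none was used.

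Of 45141 probe sets, 104 were controls, 28898 had 1 symbol, 551 several, and 15588 were unnamed here. Probe sets in the lowest 40% by mean were left out, which kept 27022. The kept probe set with 1 symbol and the highest mean stood for its gene (11836 genes). limma 3.58.1 (R 4.3.3; lmFit, and eBayes over kept probe sets) gave Meis1 deleted minus Hoxa9 and Meis1, with Benjamini-Hochberg adjustment over genes at 0.05. Errors are SD over 4 arrays for levels and SE for fold changes. Array number limits precision. On simulated data from these 11836 genes it recovered 16, 43, 50 and 50 of 50 genes changed by 0.25, 0.5, 1 and 2 on the log2 scale, with 4 false calls. The simulated noise was independent, without array sets, and far fewer genes were changed than the 35.5% called in the data. These rates therefore need not hold for the data.

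The genes examined, the lists and the tests were chosen with earlier results of these data known. The text names each examined gene, the measured GTPases of the other list, up to 4 genes per list and direction with the smallest p, and the 8 genes most like the profile. Array sets were split at the widest gap of bioB. Alternatives covered offset, normalization, filter, probe set choice, variance estimate, array weights, blocks, array sets and each array left out. Protein features were not analysed here. Python 3.11.15, pandas 2.3.3 and matplotlib 3.10.9 prepared tables and plots.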

Additional observations from a re-analysis of the deposited data

Results flagged for a closer look

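In 2 of 20 groups of 4 arrays, 1 for each group and probe set of the 7 GTPase genes, a single array lay far from the other 3 by Dixon's test, which by chance occurs in about 1 in 20 groups. For the Gbp7 probe set with the lower mean, Meis1 deleted replicate 1 read 9.85, while the nearest array of its group read 10.15. For Irgm1, Meis1 deleted replicate 1 read 9.13, while the nearest array of its group read 8.98. Both values come from the array with the 3′ minus 5′ difference of 0.72 in the Gapdh control probe sets, and the part of that difference in them was not tested. Without this array the log2 fold change was 0.50 for Gbp7, at its other probe set, and 2.55 for Irgm1, and both genes were still called.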

How the results depend on the processing

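None of the 7 GTPase genes changed direction in the alternatives run (22, or 21 for Iigp1, which left the test when the lowest 60% were left out). In them 151 of 153 values of single GTPase genes kept their call, and 224 of 242 list counts stayed within 1.5 times. The 2 lost calls were those of Gbp3 within array set 1 (0.36) and array set 2 (0.32). The set of 3 arrays holds 1 Meis1 deleted array, assumed to vary like the others. The number of genes called was 2114 within array set 1 and 2158 within array set 2, where fewer arrays were tested, against 4206 with all arrays, and it ranged from 3426 to 4673 with each array left out in turn. The median log2 fold change of the GTPase genes was 1.05 with an offset of 64, 1.62 over 6 genes with the lowest 60% left out, 1.90 with probe sets averaged per gene, 1.89 with the array set as a block, 2.02 and 1.66 within array sets 1 and 2, and 1.85 to 2.02 with each array left out in turn. Of the other interferon-inducible GTPases, 3 of 4 were higher with the lowest 60% left out. Of the ligands, 2 were higher under quantile normalization, probe sets averaged per gene, array weights and, chosen after seeing the data, a variance shared over genes alone, and 1 to 2 with each array left out in turn. Of the Atg8 conjugation genes, 2 were higher with probe sets averaged, 1 within array set 1 and 0 within array set 2. Of the prenylation genes, 2 were higher with an offset of 64, with trend and robust and with array weights, and 0 within either array set. The dynamin superfamily list had 1 higher gene within each array set, and within array set 2 the feedback list had 1 and the inflammasome list 2. The cause of these shifts was not tested. Replicate numbers do not pair the samples, since same-numbered arrays deviated together with correlations of -0.10, 0.28, -0.14 and 0.21; with the replicate number as a block 3906 genes and all 7 GTPase genes were called, with a median of 1.93.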
